A study of Homo sapiens with 8 samples.

Results

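The genes described here are subunits, inhibitors and targets of NF-kB: the subunits NFKB1, NFKB2, REL, RELA and RELB, the inhibitors NFKBIA, NFKBIE and TNFAIP3, and the targets BIRC3 and TRAF1, which act in signalling upstream of the factor. They were chosen by name, with earlier results of these data known. Of these 10 genes, 9 had a transcript cluster that carries their symbol, among 17881 clusters measured. BIRC3 was not analysed here. The cells were labelled RS4;11, an established leukemia line of B-cell precursors with an MLL fusion, and carried either a control shRNA vector or an shRNA against BTG1, which encodes an antiproliferative coregulator. Both kinds received prednisolone, a synthetic glucocorticoid, or its vehicle for 8 h, and each of the 4 groups held 2 arrays of the Affymetrix Human Exon design. All groups are labelled as the same line after transduction, and the labels name no clone, no dose and no separate cultures. A p-value here therefore reflects array-to-array spread that could be technical. The study asked how BTG1 knockdown alters the response to prednisolone.

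NF-kB dimers sit in the cytoplasm bound to inhibitor proteins such as those encoded by NFKBIA and NFKBIE. Signals from receptors of the TNF, toll-like and antigen receptor families activate a kinase that marks the inhibitor for destruction, and the dimer enters the nucleus and binds kappa B sites. Several of its targets, NFKBIA and TNFAIP3 among them, shut the pathway off again. In lymphoid cells the glucocorticoid receptor is known to oppose NF-kB, and NFKBIA is a known glucocorticoid-induced gene.

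The arrays labelled BTG1 shRNA did not carry the profile of a B-cell precursor line. All 12 T-cell markers had a cluster. At a limma adjusted p below 0.05, 11 were higher on these arrays under vehicle and 11 under prednisolone. At that threshold, 8.46% of all clusters were higher and 6.21% lower under vehicle, and 10% and 7.51% under prednisolone. CD3D, a chain of the T-cell receptor complex, read 3.24 to 3.42 on the 4 control arrays and 10.97 to 11.49 on the other 4. Of 9 measured B-lineage markers, 8 were lower under vehicle and 7 under prednisolone. The log2 of their summed level was 12.14 to 12.58 on the control arrays and 7.03 to 7.41 on the arrays labelled BTG1 shRNA, where the brightest of them reached the 46.2 percentile of its array. The same sum for T-cell markers was 8.88 to 9.82 and 13.34 to 13.65. The shRNA and this difference in lineage profile cannot be told apart in any comparison that uses these arrays, nor can, in bulk RNA, fewer cells of a type and less RNA per cell. The cluster of BTG1, which it shares with LINC01619, was lower by 2.06 under vehicle and 2.64 under prednisolone on the log2 scale (differences of -2.06 and -2.64). Values spread least on the first control vehicle array (interquartile range 2.95, and 3.39 to 3.80 on the other 7).

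The 250 bases before the RefSeq start (GRCh38.p14) are shown for the 2 inhibitors whose levels differed between groups and for 2 subunits that held a match. NF-kB is known to act on the promoters of its own inhibitors and subunits. Capitals mark each match to the kappa B consensus of 10 bases, searched on both strands, and each sequence runs 5′ to 3′ on the strand of the gene, at chr14:35404750-35404999 (minus), chr6:137867009-137867258 (plus), chr4:102501109-102501358 (plus) and chr2:60881324-60881573 (plus) in turn.
NFKBIA: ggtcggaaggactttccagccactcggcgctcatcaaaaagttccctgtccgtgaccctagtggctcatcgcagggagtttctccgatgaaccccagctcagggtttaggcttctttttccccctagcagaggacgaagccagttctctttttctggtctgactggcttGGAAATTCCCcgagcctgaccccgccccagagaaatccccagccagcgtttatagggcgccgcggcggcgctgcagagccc
TNFAIP3: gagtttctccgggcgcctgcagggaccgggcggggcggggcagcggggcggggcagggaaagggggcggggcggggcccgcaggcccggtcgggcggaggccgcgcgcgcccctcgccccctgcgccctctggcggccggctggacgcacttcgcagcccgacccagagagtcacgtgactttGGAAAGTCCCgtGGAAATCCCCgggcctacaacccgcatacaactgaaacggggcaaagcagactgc
NFKB1: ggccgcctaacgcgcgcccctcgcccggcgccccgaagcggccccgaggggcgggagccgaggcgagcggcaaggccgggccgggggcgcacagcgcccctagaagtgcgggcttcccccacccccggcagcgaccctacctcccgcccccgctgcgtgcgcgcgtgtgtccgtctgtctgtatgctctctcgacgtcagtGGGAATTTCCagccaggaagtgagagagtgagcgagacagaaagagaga
REL: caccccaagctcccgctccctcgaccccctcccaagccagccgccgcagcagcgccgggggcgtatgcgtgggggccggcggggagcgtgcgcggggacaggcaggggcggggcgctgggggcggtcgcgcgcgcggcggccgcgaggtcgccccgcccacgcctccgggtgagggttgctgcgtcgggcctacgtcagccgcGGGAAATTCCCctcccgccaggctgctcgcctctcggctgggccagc
In NFKBIA the match lay 81 to 72 bases before the start. TNFAIP3 held a pair of matches, at 67 to 58 and at 55 to 46 bases before the start, and NFKB1 held its match at 49 to 40 bases. The RefSeq table lists 2 starts for NFKB1, and the window before the other held no match. In REL overlapping matches covered 47 to 37 bases before the start. Windows were found for 7 of the 9 measured genes, and 5 of these 7 held a match in at least 1 window, NFKB2 being the one not shown. No match was found in the 2 windows of RELA or the 3 of TRAF1. Some genes have several starts. Counted by window, 6 of the 13 windows of these 7 genes held a match, beside 9.96% of all 35116 windows of this length. The glucocorticoid response element was searched as GNACA, 3 bases of any kind and then its reverse complement TGTNC. It was matched in 0 of the 7 genes and in 0.327% of all windows. At so low a share, 0 matches in 13 windows cannot tell these genes from others. Sequence beyond these 250 bases was not searched. No windows were found for NFKBIE and RELB. A match describes letters in this window and not binding.

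Levels below are log2 expression values, and differences are between group means on that scale. A gene was called when its limma p-value, adjusted by Benjamini-Hochberg over all clusters, was below 0.05. NFKBIA, which encodes IkBalpha, the inhibitor that retains NF-kB in the cytoplasm, was the member that varied most between groups. Its values were 8.66 and 8.86 in control cells with vehicle, 10.85 and 10.76 with prednisolone, 7.07 and 7.28 on the arrays labelled BTG1 shRNA with vehicle, and 7.09 and 7.19 on those with prednisolone. The control arrays stood apart from each other by treatment and from the other 4, whose treatments overlapped. The group means were 8.76 ± 0.14, 10.80 ± 0.06, 7.18 ± 0.15 and 7.14 ± 0.07 (SD, n = 2 arrays each). With prednisolone NFKBIA rose 4.12-fold in control cells, by 2.04 (SE 0.18, 95% interval 1.62 to 2.46, limma adjusted p = 0.00438). The same difference had an adjusted p of 0.0514 when limma was fitted to those 4 control arrays alone. On the arrays labelled BTG1 shRNA the difference was -0.03 (95% interval -0.45 to 0.38, limma adjusted p = 1.00). The difference between these effects was -2.08 (SE 0.25, 95% interval -2.66 to -1.49, limma adjusted p = 0.0441), a call that was lost with any 1 of the 8 arrays left out (adjusted p 0.0565 to 0.367) and when arrays were centred on their medians (0.0754).

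Within each treatment, NFKBIA was lower where the label was BTG1 shRNA. Under vehicle it was 3.01-fold lower, a difference of -1.59 (SE 0.18, 95% interval -2.00 to -1.17, limma adjusted p = 0.000861). Under prednisolone it was 12.7-fold lower, a difference of -3.66 (SE 0.18, 95% interval -4.08 to -3.25, limma adjusted p = 1.85e-05). Both calls held in all 14 alternative settings. The part of the lineage profile in these differences was not tested.

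TSC22D3, a glucocorticoid-induced leucine zipper gene that reports receptor activity, gives the scale of the response on the same arrays. It read 6.79 and 6.81 with vehicle and 9.51 and 9.43 with prednisolone in control cells, a difference of 2.67 (limma adjusted p = 0.00118). On the arrays labelled BTG1 shRNA it read 4.29 and 4.18, then 5.31 and 5.14, a difference of 0.99 whose 95% interval was 0.60 to 1.38 and whose limma adjusted p was 1.00. NR3C1, the glucocorticoid receptor, was lower there by 2.53 under vehicle and 3.51 under prednisolone (differences of -2.53 and -3.51, limma adjusted p = 0.000733 and 0.000133). The part of receptor level in the NFKBIA response was not tested.

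**Figure D1:**
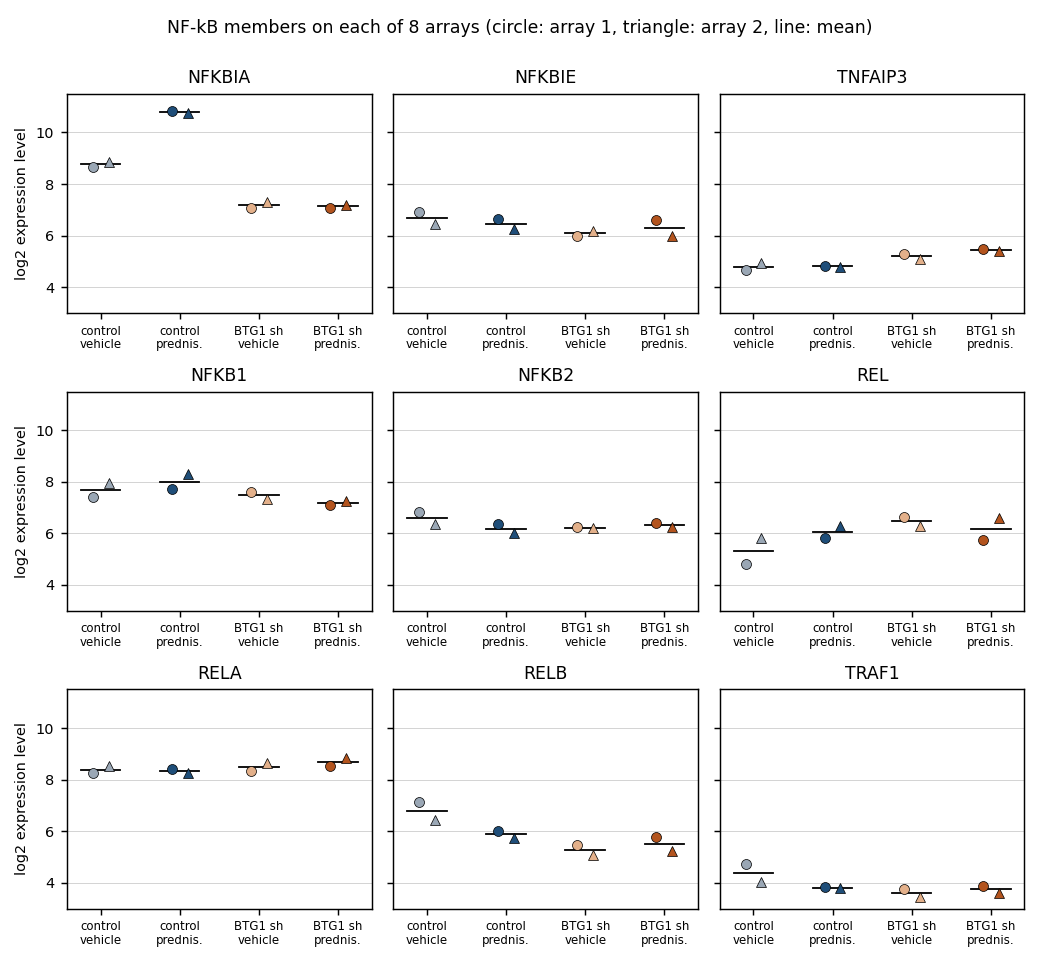
Log2 expression level of the 9 measured genes on each of the 8 arrays, by group (circle, array 1; triangle, array 2; line, group mean; all panels share the vertical axis). NFKBIA reaches 10.76 and 10.85 on the control prednisolone arrays and lies at 7.07 to 7.28 on the 4 arrays labelled BTG1 shRNA.

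The other inhibitors moved less. NFKBIE, which encodes IkBepsilon, read 6.90 and 6.44 with vehicle and 6.65 and 6.24 with prednisolone in control cells, and 6.00 and 6.19, then 6.59 and 6.00, on the arrays labelled BTG1 shRNA. In the pairs of groups compared here, its arrays overlapped except between the shRNAs under vehicle. There the difference was -0.57 (95% interval -1.21 to 0.07, limma adjusted p = 0.223). TNFAIP3 encodes A20, a ubiquitin-editing enzyme that ends signalling upstream of the IkB kinase. It read 4.65 and 4.92 with vehicle and 4.82 and 4.79 with prednisolone in control cells, and 5.29 and 5.11, then 5.48 and 5.42, on the arrays labelled BTG1 shRNA. All 4 of the latter arrays lay above all 4 control arrays. Prednisolone gave a difference of 0.02 in control cells, with a 95% interval of -0.40 to 0.44, so a rise of the size seen for NFKBIA lay outside it. Between shRNAs the difference was 0.41 under vehicle (limma adjusted p = 0.183) and 0.64 under prednisolone (SE 0.18, 95% interval 0.23 to 1.06, 1.56-fold, limma adjusted p = 0.046). The call under prednisolone held in 4 of 14 alternative settings, with an adjusted p from 0.0247 to 0.215. Under prednisolone NFKBIA was lower and TNFAIP3 higher on the arrays labelled BTG1 shRNA, the latter by this less stable call. The part of the lineage profile in the TNFAIP3 difference was not tested.

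Among the subunits, RELB was the one with a called difference. It encodes a transactivating subunit of the non-canonical pathway, where it pairs with the processed product of NFKB2. RELB read 7.14 and 6.44 with vehicle and 6.03 and 5.75 with prednisolone in control cells. On the arrays labelled BTG1 shRNA it read 5.45 and 5.06 with vehicle and 5.78 and 5.24 with prednisolone. The control vehicle arrays were the highest of the 8, and they also lay furthest from each other in this gene. Under vehicle RELB was 2.90-fold lower on the arrays labelled BTG1 shRNA, a difference of -1.53 (SE 0.30, 95% interval -2.24 to -0.83, limma adjusted p = 0.0132). Without the second array labelled BTG1 vehicle the adjusted p was 0.106, at a difference of -1.34. With prednisolone in control cells the difference was -0.91 (95% interval -1.61 to -0.20, limma adjusted p = 0.246). It became -0.56 without the first control vehicle array and -1.26 without the second (limma adjusted p = 0.777 and 0.0567). Under prednisolone the shRNA groups overlapped, at a difference of -0.38 (limma adjusted p = 0.579). The difference of the prednisolone effects was 1.16 (SE 0.43, 95% interval 0.15 to 2.16, limma adjusted p = 0.512).

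REL encodes c-Rel, the subunit most tied to lymphoid cells. It read 4.81 and 5.84 with vehicle and 5.82 and 6.28 with prednisolone in control cells, and 6.63 and 6.30, then 5.74 and 6.61, on the arrays labelled BTG1 shRNA. The control vehicle arrays differed from each other by 1.03, the widest gap of any member in any group. REL was higher on the arrays labelled BTG1 shRNA under vehicle by 1.14 without passing the test (SE 0.41, 95% interval 0.19 to 2.09, limma adjusted p = 0.116). That difference was 1.65 without the second control vehicle array (limma adjusted p = 0.0264) and 0.63 without the first (0.462). Prednisolone gave differences of 0.72 in control cells and -0.29 on the arrays labelled BTG1 shRNA (limma adjusted p = 0.454 and 1.00).

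NFKB1 encodes the p105 precursor of p50, the DNA-binding partner in the canonical dimer. It read 7.39 and 7.96 with vehicle and 7.73 and 8.29 with prednisolone in control cells, and 7.60 and 7.35, then 7.08 and 7.26, on the arrays labelled BTG1 shRNA. Under prednisolone the shRNA groups did not overlap, at a difference of -0.84 (SE 0.27, 95% interval -1.47 to -0.21, limma adjusted p = 0.0775). The limma adjusted p was 0.0376 after quantile normalization. It was not below 0.05 with median centring, with dim clusters left out or with the intensity trend. The difference was -1.12 without the first control prednisolone array and -0.56 without the second. Under vehicle the groups overlapped, at a difference of -0.20 (limma adjusted p = 0.598).

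NFKB2 encodes the p100 precursor of p52. It read 6.82 and 6.35 with vehicle and 6.36 and 6.01 with prednisolone in control cells, and 6.23 and 6.20, then 6.40 and 6.26, on the arrays labelled BTG1 shRNA. Its 4 group means lay within 0.40 of each other. RELA encodes p65, the main transactivating subunit of the canonical dimer, and its group means lay within 0.35. It read 8.25 and 8.52, then 8.41 and 8.26, in control cells and 8.34 and 8.63, then 8.53 and 8.83, on the arrays labelled BTG1 shRNA. Neither gene was called in any of the 5 comparisons. For RELA the prednisolone difference in control cells was -0.05 with a 95% interval of -0.54 to 0.43.

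TRAF1 encodes an adaptor that binds TNF receptors and is itself induced by NF-kB. It read 4.74 and 4.02 with vehicle and 3.82 and 3.79 with prednisolone in control cells, and 3.78 and 3.45, then 3.88 and 3.61, on the arrays labelled BTG1 shRNA. The control vehicle arrays were again the highest, and the gene was dim throughout, at the 24.3 to 37.8 percentile of its array. Under vehicle the difference between shRNAs was -0.77 (SE 0.27, 95% interval -1.40 to -0.15, limma adjusted p = 0.107). It was -1.13 without the second control vehicle array and -0.41 without the first. With prednisolone in control cells the difference was -0.58 (limma adjusted p = 0.387).

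**Figure D2:**
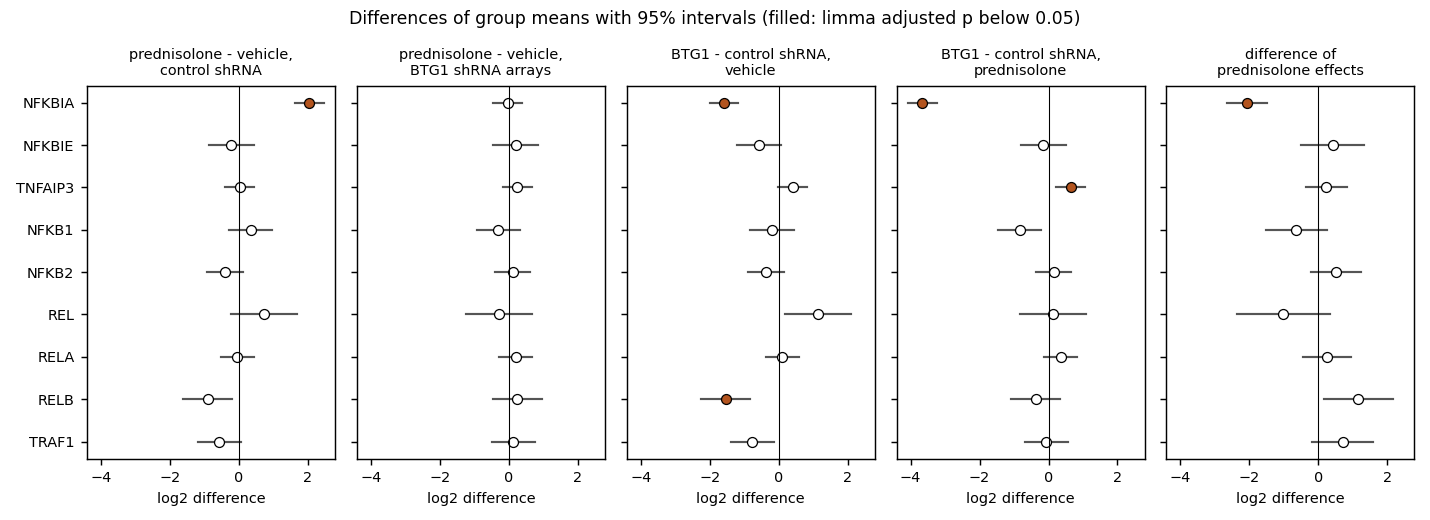
Differences of group means on the log2 scale (circles) with 95% intervals (lines) for the 9 measured genes in the 5 comparisons. Filled circles passed a limma adjusted p of 0.05; NFKBIA is filled in 4 panels, and its interval in control cells runs from 1.62 to 2.46.

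The members' counts read as follows against all clusters. With prednisolone in control cells 1 of 9 rose and 0 fell, where 1.52% of all clusters were called, 0.928% as higher and 0.587% as lower, and the median difference was -0.05 over the members and -0.16 over all clusters. On the arrays labelled BTG1 shRNA 0 of 9 were called by limma, 0 had an unadjusted p under 0.05, and 0% of all clusters were called, while 1.04% had an unadjusted p under 0.05. Under vehicle 2 of 9 were lower and 0 higher on the arrays labelled BTG1 shRNA, where 14.7% of all clusters were called, 8.46% as higher and 6.21% as lower. Under prednisolone 1 was higher and 1 lower, beside 17.5% of all clusters, 10% as higher and 7.51% as lower. For the difference of effects 1 of 9 was called, as lower, beside 0.134% of all clusters, 0.028% as higher and 0.106% as lower. The 2 prednisolone comparisons use different arrays, whereas those between shRNAs share arrays with them.

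The order of the group means differed between members. NFKBIA and NFKB1 were highest in control cells with prednisolone, and RELB, TRAF1, NFKBIE and NFKB2 were highest in control cells with vehicle. REL was highest on the vehicle arrays labelled BTG1 shRNA, and TNFAIP3 and RELA on the prednisolone arrays with that label. Neighbouring groups in these orders that a comparison of the design covers passed the test only in NFKBIA, between the control groups and between the vehicle groups. For the 2 members with the widest range, the genes whose 4 group means had the most similar shape were found over 14432 clusters with 1 symbol, by root mean square distance of the centred means. For NFKBIA these were CD109, a membrane protein anchored by GPI, at 0.0593, CCPG1, an endoplasmic reticulum protein, at 0.118, and POT1, a telomere-binding protein, at 0.124. CD109 had group means of 4.91, 6.99, 3.22 and 3.21 in the order used above. The percentile on the array ran from 15.4 to 78.6 for CD109, from 7.06 to 64.2 for CCPG1 and from 24.9 to 89.8 for POT1. The lowest values of these genes are dim, whereas the lowest percentile of NFKBIA was 73.3. For RELB they were N4BP3 at 0.0379, PTGS1, a cyclooxygenase, at 0.0522, and SCARF1, a scavenger receptor, at 0.0565. N4BP3 had group means of 7.15, 6.21, 5.64 and 5.93.

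The rest of the pathway was followed through 91 ligands, receptors, kinases and adaptors, inhibitors and target genes, of which 75 had a cluster with 1 symbol. This list, too, was chosen with earlier results of these data known. With prednisolone in control cells 1 of 75 fell and 0 rose (1.33%). Of all clusters 1.52% were called, 0.928% as higher and 0.587% as lower. An unadjusted limma p under 0.05 was found in 20 of the 75, and in 14.1% of all clusters. The median difference was -0.25, beside -0.16 over all clusters. The gene called was IL1B, a cytokine that both activates NF-kB and is its target. It read 7.96 and 8.37 with vehicle and 4.91 and 5.03 with prednisolone, a difference of -3.19 (SE 0.21, limma adjusted p = 0.00139). IL1B thus fell as NFKBIA rose on the same 4 arrays. On the arrays labelled BTG1 shRNA IL1B read 3.18 and 3.28, then 3.62 and 3.26, which is dim, at the 16.4 to 22.9 percentile. There the difference was 0.21 (95% interval -0.29 to 0.72). On those arrays 0 of 75 genes were called by limma or had an unadjusted p under 0.05, beside 0% and 1.04% of all clusters. The difference between the IL1B effects was 3.41 (SE 0.30, limma adjusted p = 0.0174), a call lost in 7 of 13 alternative settings (highest adjusted p 0.153).

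**Figure D3:**
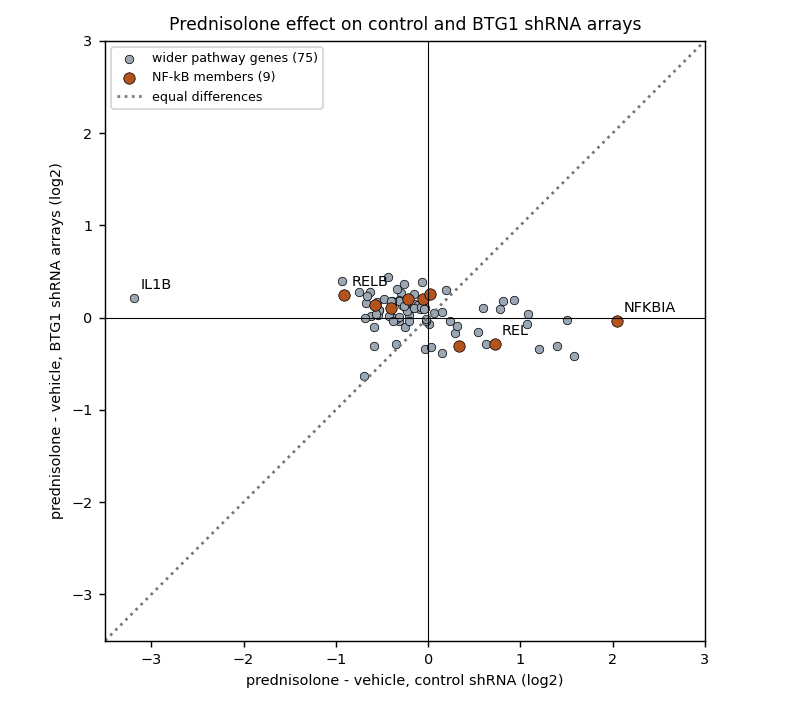
Prednisolone minus vehicle on the log2 scale in control cells (horizontal axis) against the same on the arrays labelled BTG1 shRNA (vertical axis), for 75 wider pathway genes (grey) and the 9 measured members (brown); the dotted line marks equal differences. NFKBIA lies at 2.04 and -0.03, and IL1B at -3.19 and 0.21.

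Between shRNAs, more of the pathway differed, on arrays whose lineage markers differed too. Under vehicle 12 of 75 genes were higher and 10 lower on the arrays labelled BTG1 shRNA (29.3%, beside 14.7% of all clusters). Under prednisolone 14 were higher and 9 lower (30.7%, beside 17.5%). Of all clusters, 8.46% were called as higher and 6.21% as lower under vehicle, and 10% and 7.51% under prednisolone. Of the calls in the list of 75, 10 of 22 and 13 of 23 held in all 14 alternative settings. The medians were -0.18 and 0.04, against -0.15 and 0.04 over all clusters. Of 22 kinases and adaptors, 5 were higher and 0 lower under vehicle, and 7 were higher and 1 lower under prednisolone. PRKCB, a protein kinase C isoform that acts downstream of antigen receptors, was higher by 3.43 and 3.58 (SE 0.27 for both). TRAF5, an adaptor of TNF receptors, was higher by 3.15 and 2.80 (SE 0.28) against a dim level on the control arrays, at the 18.6 to 24.9 percentile. TRAF3, which holds back the non-canonical pathway, was higher by 1.77 and 2.31 (SE 0.23). PRKCQ, the protein kinase C isoform of T cells, was higher by 1.66 under prednisolone (SE 0.29). It was also called as higher under vehicle, with group means of 6.24 in control cells and 7.79 on the arrays labelled BTG1 shRNA.

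Of 7 ligands, 3 were lower and 0 higher under vehicle, and 1 was lower under prednisolone. IL1B was that one, with differences of -4.94 and -1.53 (SE 0.21 for both). Of 13 receptors, 1 was higher and 3 lower under vehicle, and 2 higher and 2 lower under prednisolone. TNFRSF1B, the second TNF receptor, was lower under vehicle by 1.51 (a difference of -1.51, SE 0.24), and TLR4, the receptor for bacterial lipopolysaccharide, had a difference of -1.38 (SE 0.17), with TLR4 at or below the 17.4 percentile on the arrays labelled BTG1 shRNA. Under prednisolone the difference in TNFRSF1B was -0.17 (limma adjusted p = 0.872). TLR4 was also called as lower under prednisolone, with group means of 4.33 in control cells and 3.12 on the arrays labelled BTG1 shRNA. Of 11 inhibitors and brakes, 2 were higher and 1 lower under vehicle and 1 each way under prednisolone. TAX1BP1, a partner of A20, was higher under vehicle by 2.80 (SE 0.44), and its difference under prednisolone was 1.26 (limma adjusted p = 0.105).

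Of 22 target genes, 4 were higher and 3 lower under vehicle, and 4 each way under prednisolone. IRF4, a lymphoid transcription factor, had differences of -4.51 and -3.88 (SE 0.22), and CD44, an adhesion receptor, had -3.72 and -3.38 (SE 0.19). CD44 was dim on the 4 arrays labelled BTG1 shRNA, at the 13.0 to 16.7 percentile, so these differences are set against a level near the bottom of the array. GADD45B, a stress response gene, and CFLAR, an inhibitor of caspase-8, had differences of -1.91 and -1.65 under prednisolone (SE 0.22 and 0.21). BCL2L1, which encodes the survival protein BCL-XL, was higher by 1.82 under prednisolone (SE 0.21). Under vehicle GADD45B was also called as lower, with group means of 7.06 in control cells and 5.89 on the arrays labelled BTG1 shRNA. BCL2L1 was also called as higher under vehicle (7.70 and 8.91), whereas CFLAR was not called (5.27 and 4.65). CD69, an early activation marker of lymphocytes, was higher by 1.85 under vehicle (SE 0.32), with a limma adjusted p of 0.0668 without the second array labelled BTG1 vehicle. Under prednisolone the difference in CD69 was -0.14 (limma adjusted p = 0.978). Target genes of NF-kB were thus called in both directions within each treatment. The part of lineage in these differences was not tested.

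**Figure D4:**
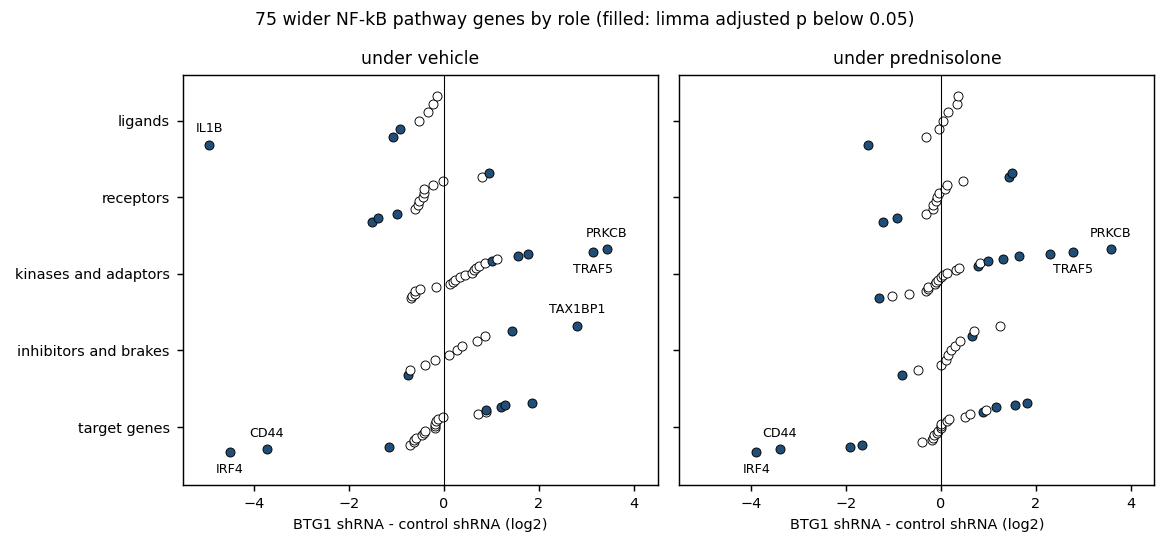
BTG1 shRNA minus control shRNA on the log2 scale for 75 wider pathway genes, by role, under vehicle (left) and prednisolone (right); filled points passed a limma adjusted p of 0.05 and points are spread vertically only to separate them. IL1B, IRF4 and CD44 lie lowest under vehicle, at -4.94, -4.51 and -3.72, and PRKCB highest, at 3.43.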

How the data were processed

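RNA of 8 samples was hybridised to exon arrays. Per the submitters' processing notes, RMA and Partek were used, and probes were summarised over core meta-probe sets on hg18 per the labels. Their versions are not given here. The values the authors deposited are log2 levels (another unit as stored) in which a decimal point survives in 153 of 143048 cells (2.47 to 12.25). The missing points were restored behind the leading digit, or behind 2 digits for the 2831 entries that start with 1, of which 0 start with 14 to 19. The correlation between arrays was 0.446 to 0.587 as deposited and 0.872 to 0.995 after this. The planned tests, which assumed plain log2 values, were run on the restored ones without further normalization or filter, and 0 columns were left out. The number of arrays limits the precision.

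Symbols came from the platform annotation (14432 clusters with 1 symbol, 2408 with several, 1041 with none), and a gene takes its name from a 1-symbol cluster, except BTG1. limma 3.58.1 in R 4.3.3 (lmFit, eBayes) was fitted to 4 group means over all 8 arrays, with 4 residual and 3.51 prior degrees of freedom, 5 contrasts and Benjamini-Hochberg adjustment over all 17881 clusters. Scripts were tested on simulated data. Named genes are all members with a cluster, up to 5 higher and 5 lower called genes of the wider list per comparison by size, and BTG1, NR3C1 and TSC22D3. Alternatives were quantile normalization, median centring, leaving out dim clusters (below the 25 percentile), a replicate block, an intensity trend with robust spread, only the 4 arrays compared, and each array left out in turn. Replicate numbers were not taken to pair arrays. The members and lists were chosen with earlier results of these data known. Promoter sequences are from RefSeq (GRCh38.p14). Markers fixed for other cells were also counted on the arrays labelled BTG1 shRNA. Of 5 measured myeloid genes, 1 was called as lower under vehicle and 0 under prednisolone. Of 3 erythroid genes 0 were called, and 2 of 8 stromal or epithelial genes were called as higher under each treatment. Of all clusters, 8.46% were called as higher and 6.21% as lower under vehicle, and 10% and 7.51% under prednisolone.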

Additional observations from a re-analysis of the deposited data

Results flagged for a closer look

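In 2 genes the prednisolone effect differed between the control arrays and the arrays labelled BTG1 shRNA by a limma test of the difference itself. For NFKBIA it was -2.08 (SE 0.25, adjusted p = 0.0441), from 2.04 in control cells and -0.03 on the arrays labelled BTG1 shRNA. For IL1B it was 3.41 (SE 0.30, adjusted p = 0.0174), from -3.19 and 0.21, with the level on the arrays labelled BTG1 shRNA at or below the 22.9 percentile of each array. Both calls were lost when arrays were centred on their medians and in fits that left out single arrays. In both genes the shRNA and the lineage profile cannot be told apart.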

How the results depend on the processing

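Of the member results over all alternatives, 591 kept their side of the threshold (25 of them uncalled values that changed sign), 21 lost the call, 9 gained one and 0 called values reversed. The count of members called is given next, with the reported count in parentheses. With prednisolone in control cells (1) it was 0 with only the 4 arrays compared and 1 with each array left out. On the arrays labelled BTG1 shRNA it was 0 in all 14. Between shRNAs under vehicle (2) it was 1 to 4 with an array left out, with 4 without the second control vehicle array. Under prednisolone (2) it was 1 with centring, with dim clusters left out and with the trend, and 1 to 3 with an array left out; quantile normalization kept 2 but replaced TNFAIP3 (0.213) by NFKB1 (0.0376). For the difference of effects (1) it was 0 with centring and 0 with each array left out. For the wider list with prednisolone in control cells (1) it was 2 with quantile normalization, 3 with centring, 2 with dim clusters left out, 3 with the trend and 1 to 9 with an array left out, with 9 without the second control vehicle array. Under vehicle (22) it was 11 to 37, with 37 without the second control vehicle array and 14 and 11 without the first and second arrays labelled BTG1 vehicle. Under prednisolone (23) it was 14 to 28, with 15 without the second control prednisolone array and 15 and 14 without the first and second arrays labelled BTG1 prednisolone. For the difference (1) it was 0 with centring and 0 to 1 with an array left out. The causes were not tested. In the medians of all clusters, -0.16 for prednisolone in control cells became -0.05 with quantile normalization and -0.04 with centring, and 0.20 for the difference became 0.06 and 0.03.

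With the replicate number as a block, the count of members called became 2 with prednisolone in control cells (RELB added, adjusted p = 0.0323), 4 between shRNAs under vehicle (REL 0.0389 and TRAF1 0.0284 added) and 3 under prednisolone (NFKB1 0.0372 added), and that of the wider list became 7 and 34 in the first 2 of these. Deviations of same-numbered arrays correlated at 0.56, 0.43, 0.0072, 0.59, 0.42 and 0.26 over clusters in the 6 pairs of groups, and no label ties numbers to a shared culture or day. The alternative choice of cluster gave no other value, since each measured member has 1 cluster. Among the members, leaving out values that start with 1 without a point removed the NFKBIA level in control cells with prednisolone and no other level. Only the 4 arrays compared could not be used for the difference of effects.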
